A study of Mus musculus with 6 samples.

Results

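The genes described here are the cytokines, receptors and feedback inhibitor of the interleukin-6 family that were fixed by name as Il6, Lif, Osm, Il11, Osmr, Lifr, Il6st, Il11ra1, Il6ra and Socs3. All 10 were measured, each by 1 probe set of 9 probes whose transcript accession matched the gene, among 41938 entries on the array (17331 genes with a symbol and the rest unnamed probe sets). The arrays carried RNA from MC3T3-E1 cells, a clonal preosteoblast line from mouse calvaria, used at passages 5 to 12. The first group was differentiated for 15 days in complete medium with 10 mM glycerol-2-phosphate and 50 µg/mL ascorbic acid, and the second was left undifferentiated in complete medium without these supplements. Both groups had ethanol vehicle for 24 h, and each was made in biological triplicate (n = 3 arrays per group). Because the supplements and the days in culture came together, their effects cannot be told apart from differentiation in any comparison here.

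Cytokines of this family share the signalling chain gp130, the product of Il6st. Interleukin-6 and interleukin-11 first bind their own receptor chains (Il6ra, Il11ra1) and then bring gp130 together, whereas leukaemia inhibitory factor joins gp130 to Lifr, and mouse oncostatin M acts mainly through gp130 joined to Osmr. The assembled receptors activate JAK kinases and STAT3, and STAT3 induces Socs3, which binds the same receptors and shuts them off. In bone, osteoblasts and osteocytes both make and answer these cytokines, which act on bone formation and, through osteoblasts, on osteoclasts.

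Levels below are quantile-normalised log2 intensities, so a step of 1 is 2-fold, and they may be compared between arrays for 1 gene but not between genes. A gene was called higher or lower where limma's two-sided p, after Benjamini-Hochberg adjustment across the whole table, was below 0.05. A set of random-sequence control probes, which read 6.69 to 6.80 on the 6 arrays, marks the floor. A reading above that floor does not by itself show a transcript, since the T cell genes Cd4 and Cd3e read 10.83 to 11.30 and 8.95 to 9.33 in these cells. Of 8 markers of the osteoblast lineage, 3 were called higher and 0 lower: Alpl (12.58 ± 0.07 in differentiated and 9.56 ± 0.02 in undifferentiated cells, SD, n = 3 each), Bglap (log2 fold change 0.81) and Sp7 (0.52). Runx2 read 12.38 to 12.58 on the 6 arrays and was not called. Nor were Ibsp (log2 fold change 0.41, groups overlapping), Col1a1 (0.05), Col1a2 (0.04) and Spp1 (-0.10). Over all entries, 7.97% were called higher and 9.04% lower. Undifferentiated replicate 3 stood farthest from its group (root mean square deviation of 0.208 over all entries, against 0.082 to 0.154 for the other arrays). The image names in the files carry 1 date for each group, so that date and the group cannot be told apart.

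Differentiated cells carried less mRNA for the oncostatin M receptor chain Osmr and for the feedback inhibitor Socs3, while the leukaemia inhibitory factor receptor Lifr and 3 of the 4 cytokines did not pass the test. Osmr was 2.93-fold lower and Socs3 2.63-fold lower in differentiated cells, and on neither gene did the groups overlap. Il6 also passed, 1.27-fold lower, at readings close to the control probes. In all, 3 of the 10 genes were called lower and 0 higher by limma, against 9.04% of all entries called lower, 7.97% called higher and 17.0% called in either direction. Before adjustment, Il11ra1 (higher) and Il6st (lower) also passed 0.05 in limma. A fall of at least 2-fold was called in 2 of the 10, against 0.923% of all entries. The groups did not overlap for 5 of the 10, 4 lower and 1 higher, against 18.0% of all entries lower without overlap, 17.4% higher and 35.4% in either direction. The median log2 fold change of the 10 genes was -0.08, beside 0.00 for all entries. In RNA from whole cultures, fewer cells of a kind and less RNA per cell cannot be told apart.

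The promoters of the 3 called genes are shown first, as the genes on which the results turn. Each line is the 250 bases before the RefSeq start of the gene (build GRCm38.p6), 5′ to 3′ on the strand of the gene, in lower case with matches to 6 motifs in capitals.
Osmr (chr15:6874314-6874563, minus strand): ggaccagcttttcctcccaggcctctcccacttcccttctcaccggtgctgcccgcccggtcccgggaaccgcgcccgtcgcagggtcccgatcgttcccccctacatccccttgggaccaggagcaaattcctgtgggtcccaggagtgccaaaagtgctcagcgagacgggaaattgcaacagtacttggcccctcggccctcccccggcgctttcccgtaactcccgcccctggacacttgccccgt
Socs3 (chr11:117969367-117969616, minus strand): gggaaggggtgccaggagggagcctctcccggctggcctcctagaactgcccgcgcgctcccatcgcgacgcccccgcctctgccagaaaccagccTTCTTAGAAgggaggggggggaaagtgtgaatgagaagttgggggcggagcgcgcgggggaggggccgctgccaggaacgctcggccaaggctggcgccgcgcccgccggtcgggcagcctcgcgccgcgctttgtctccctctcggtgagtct
Il6 (chr5:30012864-30013113, plus strand): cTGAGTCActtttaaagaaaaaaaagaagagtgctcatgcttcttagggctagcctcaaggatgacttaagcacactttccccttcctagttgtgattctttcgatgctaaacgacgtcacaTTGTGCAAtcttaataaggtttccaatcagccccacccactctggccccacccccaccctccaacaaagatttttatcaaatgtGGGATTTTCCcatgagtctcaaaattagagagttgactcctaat
The motifs, searched on both strands, were TTCNNNGAA for STAT factors, TGTGGT for RUNX factors, TGANTCA for AP-1, TTGCNNAA for C/EBP factors, TGACGTCA for the cAMP response element and, for NF-kB, GGG and TTTCC with any 2 bases between them. In Socs3 the capitals mark a STAT match, TTCTTAGAA, 154 to 146 bases before the start. Such a match lay in 7.02% of all 32851 promoters searched over the same length. In Il6 they mark an AP-1 match (249 to 243 bases before the start), a C/EBP match (128 to 121, on the other strand) and an NF-kB match (44 to 35). These motifs lay in 6.75%, 9.56% and 1.41% of all promoters. The Osmr window held none of the 6 and so has no capitals. RUNX matches, present in 14.0% of all promoters, lay in 2 of the 12 promoters listed for 9 of the 10 genes, those of Lif and of Il11ra1. No sequence is shown for Osm. A match is a run of letters and not evidence of binding.

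**Figure D1:**
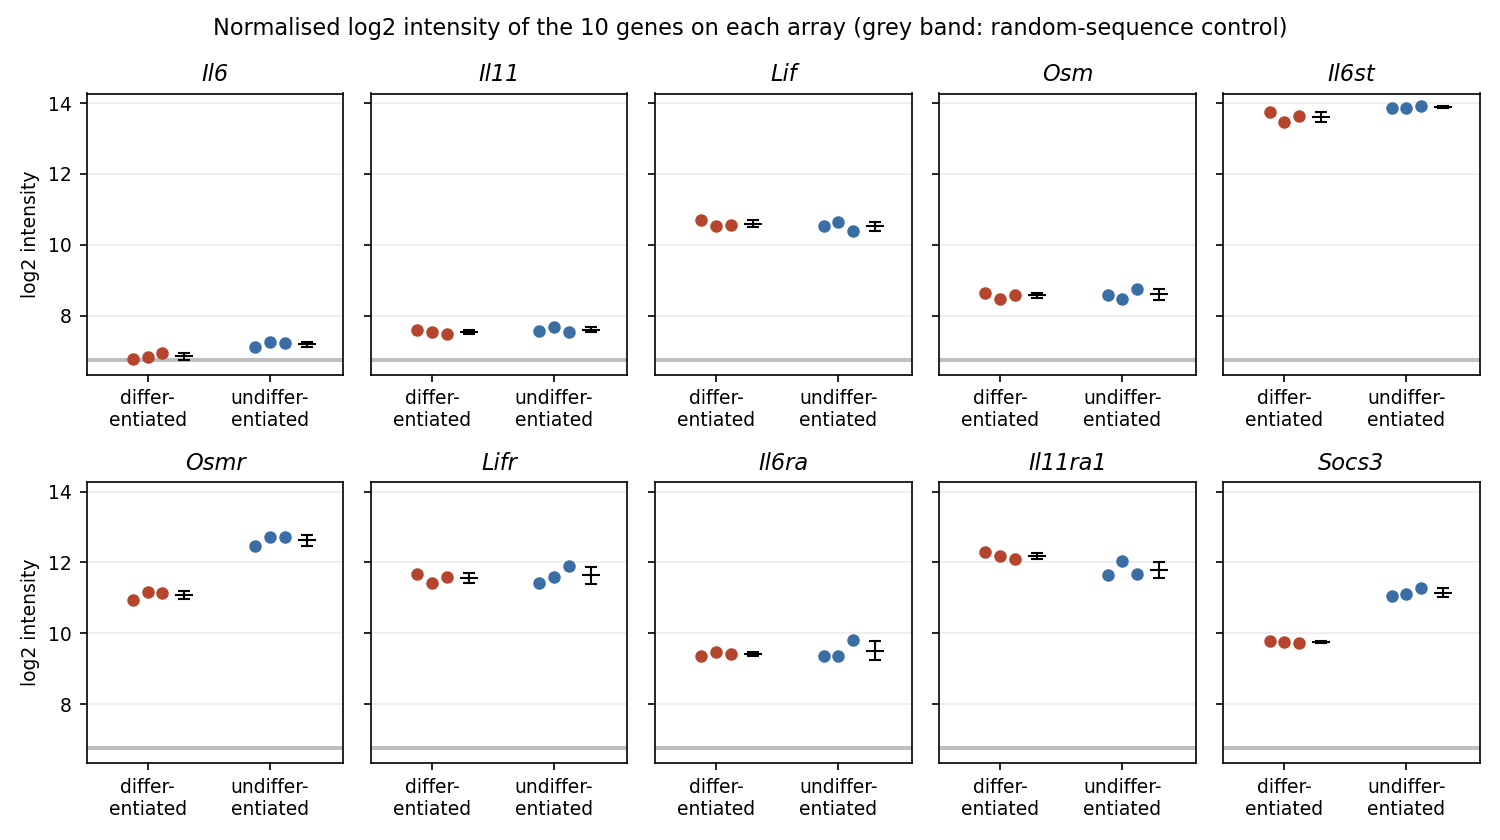
Normalised log2 intensity (vertical axis) of each of the 10 genes on the 3 differentiated arrays (red, left) and the 3 undifferentiated arrays (blue, right), with black marks for the mean and SD and a grey band for the random-sequence control. Osmr and Socs3 sit more than 1 log2 unit lower on every differentiated array. Il6 lies close to the control band on all 6 arrays, and within it on differentiated array 1 (6.76).

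Of the receptor chains, Osmr changed most. It read 10.94, 11.15 and 11.13 on differentiated arrays 1, 2 and 3, against 12.45, 12.71 and 12.72 on undifferentiated arrays 1, 2 and 3. Every differentiated array was thus lower than every undifferentiated one, with 1.29 log2 units between the nearest arrays of the groups. The intensities as deposited ran from 1898 to 2303 units in differentiated and from 5444 to 7344 units in undifferentiated cells. This amounts to a log2 fold change of -1.55 ± 0.11 SE (95% confidence interval -1.81 to -1.29, limma adjusted p = 6.1e-05). Ordered by log2 fold change, Osmr was number 33 from the lowest of 17331 genes with a symbol. It was called lower in all 17 alternative settings, between -1.64 and -1.41, and it stood at -1.50 without undifferentiated replicate 3. Some of these settings, the other probe set rules and the series table, could not move its log2 fold change.

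Lifr, which lies near Osmr on chromosome 15 with 3 genes between them in the RefSeq order, 0 of them protein-coding, did not pass. It read 11.68, 11.41 and 11.58 on differentiated arrays 1, 2 and 3, against 11.42, 11.59 and 11.89 on undifferentiated arrays 1, 2 and 3. The groups overlapped, and the highest value belonged to undifferentiated replicate 3. The log2 fold change was -0.08 (95% confidence interval -0.39 to 0.23, limma adjusted p = 0.761), an interval that leaves out a fall as large as that of Osmr. The log2 difference Osmr minus Lifr was also taken within each array, where its size depends on the probes and only its shift between groups can be read. It averaged -0.48 ± 0.24 in differentiated and 0.99 ± 0.15 in undifferentiated cells (SD, n = 3 each). That difference shifted by -1.48, with no overlap between groups (exact two-sided permutation p = 0.1, the smallest that 3 arrays against 3 allow; 0.15 after Benjamini-Hochberg adjustment over 6 pairs chosen with the values known). The design cannot bring such a test under 0.05.

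Il6st, the chain that all these receptors share, read 13.74, 13.46 and 13.63 on differentiated arrays 1, 2 and 3, against 13.87, 13.86 and 13.91 on undifferentiated arrays 1, 2 and 3. The groups did not overlap, though the nearest arrays were only 0.12 apart, and the test was not passed. The log2 fold change was -0.27 ± 0.10 SE (95% confidence interval -0.50 to -0.04, limma adjusted p = 0.104). Array weights (-0.39, adjusted p = 0.00445) and eBayes with trend and robust settings (-0.27, adjusted p = 0.0440) called it lower, and the other 15 alternatives did not. The array weights rested mostly on differentiated replicate 2 (11.069, against 0.24 to 1.423 for the other arrays). Osmr minus Il6st, within arrays, averaged -2.54 ± 0.25 in differentiated and -1.26 ± 0.15 in undifferentiated cells, without overlap (n = 3 each, exact permutation p = 0.1, the smallest possible; 0.15 adjusted). Lifr minus Il6st averaged -2.06 ± 0.01 in differentiated and -2.25 ± 0.22 in undifferentiated cells, and there the groups overlapped (n = 3 each, exact permutation p = 0.4).

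The chains that bind a single cytokine were Il6ra and Il11ra1. Il6ra read 9.36, 9.48 and 9.41 on differentiated arrays 1, 2 and 3, against 9.35, 9.36 and 9.81 on undifferentiated arrays 1, 2 and 3. The values overlapped, and 1 array, undifferentiated replicate 3, lay above the rest. The log2 fold change was -0.09 (95% confidence interval -0.39 to 0.22, limma adjusted p = 0.722), and it was 0.07 without that array. Il11ra1 read 12.28, 12.18 and 12.09 on differentiated arrays 1, 2 and 3, against 11.63, 12.05 and 11.67 on undifferentiated arrays 1, 2 and 3. All differentiated arrays were higher, by as little as 0.04 over undifferentiated replicate 2. The change of 0.40 ± 0.13 SE on the log2 scale (95% confidence interval 0.11 to 0.70, limma adjusted p = 0.0681) missed the threshold, and it passed without that array (0.54, adjusted p = 0.0189) and in 4 of the other 16 alternatives. Il11ra2, a close copy of Il11ra1 in the mouse, had a log2 fold change of 0.44 ± 0.12 SE (limma adjusted p = 0.0424). Whether the probes tell the copies apart was not tested, and Il11ra1 minus Il11ra2 averaged 0.11 ± 0.10 in differentiated and 0.15 ± 0.09 in undifferentiated cells. The call of Il11ra2 was lost without any 1 differentiated array, without undifferentiated replicate 1 or 3 and with median centring.

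**Figure D2:**
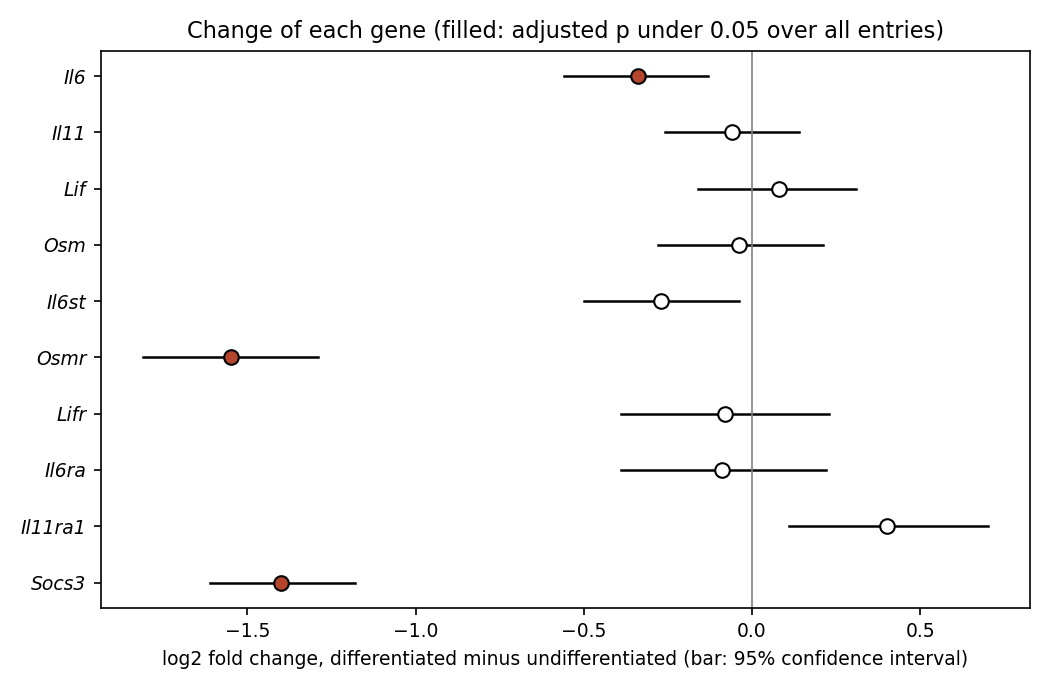
Log2 fold change, differentiated minus undifferentiated (horizontal axis), of the 10 genes with 95% confidence intervals from limma; filled points passed an adjusted p of 0.05. The intervals of Osmr (-1.81 to -1.29) and Socs3 (-1.61 to -1.18) lie apart from those of the other 8 genes.

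The readings of the cytokine genes themselves moved little. Il6 read 6.76, 6.84 and 6.94 on differentiated arrays 1, 2 and 3, against 7.10, 7.24 and 7.22 on undifferentiated arrays 1, 2 and 3. The groups did not overlap, but all readings were close to the control probes, 0.02 to 0.21 above them in differentiated and 0.31 to 0.49 above them in undifferentiated cells. The log2 fold change was -0.34 ± 0.09 SE (95% confidence interval -0.56 to -0.13, limma adjusted p = 0.0394), and its size is uncertain so near the floor. The call was lost without any 1 differentiated array and without undifferentiated replicate 1 or 2 (adjusted p from 0.0555 to 0.150). It was also lost with the values as deposited, with median centring and with an offset of 50 units.

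Il11 read 7.58, 7.54 and 7.49 on differentiated arrays 1, 2 and 3, against 7.57, 7.68 and 7.54 on undifferentiated arrays 1, 2 and 3, so the groups overlapped. Its log2 fold change was -0.06 (95% confidence interval -0.26 to 0.14, limma adjusted p = 0.709). Lif and Osm, which are neighbours on chromosome 11 with 0 genes between them in RefSeq, did not pass either. Lif read 10.71, 10.52 and 10.56 on differentiated arrays 1, 2 and 3, against 10.52, 10.64 and 10.40 on undifferentiated arrays 1, 2 and 3. Osm read 8.63, 8.48 and 8.59 on differentiated arrays 1, 2 and 3, against 8.57, 8.46 and 8.76 on undifferentiated arrays 1, 2 and 3. In both genes the groups overlapped. The log2 fold changes were 0.08 for Lif (95% confidence interval -0.16 to 0.31) and -0.04 for Osm (-0.28 to 0.21). For the probe readings, changes as large as 2-fold lie outside both intervals. Lif read below Cd4 (10.83 to 11.30) and Osm below Cd3e (8.95 to 9.33), the T cell genes named above. Il11 and Il6ra also read below Cd4. Socs3 read below Cd4 in differentiated cells (9.72 to 9.78) and within its range in undifferentiated cells (11.04 to 11.28). Osmr read within that range in differentiated cells only (10.94 to 11.15). Whether and how far these readings come from the transcripts was not tested.

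Oncostatin M is made mainly by macrophages and other blood cells, and markers of these cells were read beside it. Of 7 macrophage and osteoclast markers measured, 1 was called higher and 0 lower, and that one, the protease gene Ctsk, averaged 15.20 ± 0.02 in differentiated and 14.22 ± 0.04 in undifferentiated cells (SD, n = 3 each). The defining markers Adgre1 and Csf1r read 7.56 to 7.74 and 7.69 to 7.82 in differentiated cells, against 7.59 to 8.04 and 7.48 to 7.88 in undifferentiated cells. The mean level of the 7 markers was 9.25 to 9.28 on differentiated and 9.11 to 9.16 on undifferentiated arrays. That mean includes Ctsk, whose log2 fold change was 0.98. The 6 others went both ways and were not called: Ptprc (0.20), Csf1r (0.15), Acp5 (0.01), Itgam (-0.04), Adgre1 (-0.16) and Cd14 (-0.19). None of 4 lymphocyte, 3 neutrophil or 3 chondrocyte markers was called by limma or had an unadjusted p under 0.05, and the differences farthest from 0 in those lists were 0.21 (Cd3e), 0.16 (S100a8) and 0.11 (Col2a1 and Acan) on the log2 scale. Of 4 adipocyte markers, 1 was called lower and 0 higher. It was Adipoq (-0.42), which read only 0.08 to 0.31 above the control probes in differentiated cells and 0.39 to 0.62 above them in undifferentiated cells. The other 3 differed by 0.34 (Pparg, higher on every differentiated array), -0.27 (Fabp4, lower on every one) and 0.10 (Plin1, overlapping) and were not called. Of 4 endothelial markers, 2 were called higher, Tek (log2 fold change 1.49) and Pecam1 (0.47), with a mean level of the list of 8.46 to 8.54 on differentiated and 7.88 to 8.02 on undifferentiated arrays. Kdr (0.19) was not called, and its groups overlapped. The defining endothelial marker Cdh5 read 6.56 to 6.62 in differentiated and 6.53 to 6.67 in undifferentiated cells, below the control probes. The part of the markers that moved in the results was not tested.

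Socs3, the inhibitor that STAT3 induces, fell with the least spread of the 10 genes in differentiated cells. It read 9.78, 9.75 and 9.72 on differentiated arrays 1, 2 and 3, against 11.04, 11.12 and 11.28 on undifferentiated arrays 1, 2 and 3. All differentiated arrays were lower, with 1.26 between the nearest arrays of the groups. The intensities as deposited were 842 to 896 units in differentiated and 2036 to 2710 units in undifferentiated cells. The change came to -1.40 ± 0.10 SE on the log2 scale (95% confidence interval -1.61 to -1.18, limma adjusted p = 4.62e-05). It was called in all 17 alternatives, between -1.45 and -1.33, and stood at -1.33 without undifferentiated replicate 3.

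For the related genes Socs1 and Socs2, picked after their values were seen, the changes were unlike that of Socs3. Others of the family had smaller negative log2 fold changes. Socs6 (-0.33) was called lower, and Socs4 (-0.44), Cish (-0.37), Socs7 (-0.35) and Socs5 (-0.04) were not called. Socs1, a related inhibitor of JAK kinases, differed by -0.22 on the log2 scale (limma adjusted p = 0.274), with a 95% confidence interval of -0.49 to 0.06. Socs2, which restrains growth hormone signalling, rose by 0.53 ± 0.13 SE (adjusted p = 0.0271), a call lost without replicate 1 or 2 of either group and with median centring. Within arrays, Socs3 minus Socs1 averaged 0.49 ± 0.15 in differentiated and 1.67 ± 0.11 in undifferentiated cells, and Socs3 minus Socs2 averaged -2.10 ± 0.20 in differentiated and -0.18 ± 0.07 in undifferentiated cells. Neither overlapped between groups (n = 3 each, exact permutation p = 0.1 for both, the smallest possible; 0.15 adjusted over the 6 pairs).

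The genes whose pattern over the 6 arrays lay nearest to that of Osmr were found by the Euclidean distance of log2 deviations from each gene's own mean, among 17330 genes with a symbol. They were the cytochrome P450 gene Cyp1b1 at a distance of 0.152, the matricellular gene Ccn5 at 0.160, the kinesin gene Kif21a at 0.238, the matrix gene Tinagl1 at 0.253 and the cadherin gene Cdh22 at 0.273. Socs3 came at number 7 of that order, at 0.311. Cyp1b1 averaged 10.72 ± 0.10 in differentiated and 12.25 ± 0.10 in undifferentiated cells (SD, n = 3 each), and the log2 fold changes of the 5 genes ran from -1.70 to -1.54. The distance is a description of these 6 arrays. With 2 groups it depends largely on the log2 fold change, so the place of Socs3 (-1.40) mostly restates its fall.

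Beyond the 10 genes, other parts of the pathway were read from lists of receptors, signal transducers, inhibitors and target genes. Their counts stand beside 7.97% of all entries called higher and 9.04% called lower. Of 9 further receptor genes, 1 was called higher, Il11ra2, and 0 lower. Of 5 genes of receptor shedding, 1 was called higher and 0 lower. That one was Adam17, a protease that cuts the interleukin-6 receptor from the cell surface (log2 fold change 0.41, adjusted p = 0.0408), and its call was lost without any 1 differentiated array, without undifferentiated replicate 1 or 2, with the values as deposited and with median centring.

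Of 17 genes for JAK kinases, STAT factors and adaptors, 3 were called higher and 2 lower, against 7.97% and 9.04% of all entries. Their median log2 fold change was 0.03. Jak1, the kinase on which gp130 chiefly depends, read 14.21, 14.13 and 14.20 on differentiated arrays 1, 2 and 3, against 13.41, 13.23 and 13.55 on undifferentiated arrays 1, 2 and 3. It thus rose without overlap, by 0.78 ± 0.11 SE on the log2 scale (limma adjusted p = 0.00170). Stat5a rose by 0.86 ± 0.09 SE and the adaptor Shc1 by 0.61 ± 0.09 SE, while Stat2, a transducer of interferon signals, had a log2 fold change of -0.60 ± 0.09 SE (adjusted p of 0.00277 or less for these 3). These 4 calls held in all 17 alternatives, whereas that of Sos1 (-0.31, adjusted p = 0.0455) was lost without any 1 differentiated array, without undifferentiated replicate 1 or 2, with the replicate block, with the values as deposited and with median centring. Stat3 averaged 12.49 ± 0.08 in differentiated and 12.46 ± 0.18 in undifferentiated cells (n = 3 each; log2 fold change 0.03, 95% confidence interval -0.23 to 0.29, limma adjusted p = 0.908). The arrays measured mRNA only, and STAT3 phosphorylation was not measured here.

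Of 15 further inhibitors, 1 was called higher and 3 lower, against 7.97% and 9.04% of all entries. Their median log2 fold change was -0.22. The phosphatase gene Ptpn1, whose product removes phosphate from JAK kinases, was 1.48-fold lower (log2 fold change -0.56 ± 0.10 SE, limma adjusted p = 0.00650) and was called in all 17 alternatives. Pias4 had a log2 fold change of -0.46 and Socs6 one of -0.33. The call of Pias4 was lost without differentiated replicate 2, and that of Socs6 without any 1 differentiated array or without undifferentiated replicate 1 or 3. The call of Socs6 was also lost with the values as deposited, with median centring and with an offset of 50 units. The 1 higher call was that of Socs2.

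The 27 genes of the STAT3 target list, of which Osmr itself is one, went both ways. Of them 4 were called higher and 7 lower, with a median log2 fold change of 0.04, against 7.97% and 9.04% of all entries. The adhesion receptor gene Icam1 rose by 1.08 ± 0.11 SE and Fos by 0.84 ± 0.16 SE, whereas Junb, which like Fos encodes an AP-1 subunit, had a log2 fold change of -0.68 ± 0.12 SE. All 3 were called in all 17 alternatives. The count over the list moved with single arrays. Without differentiated replicate 1, 3 were called higher and 2 lower, without differentiated replicate 2, 2 and 2, and without undifferentiated replicate 1 or 2, 3 and 3. Many genes of the list also answer to other signals, and no array here had a cytokine added.

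**Figure D3:**
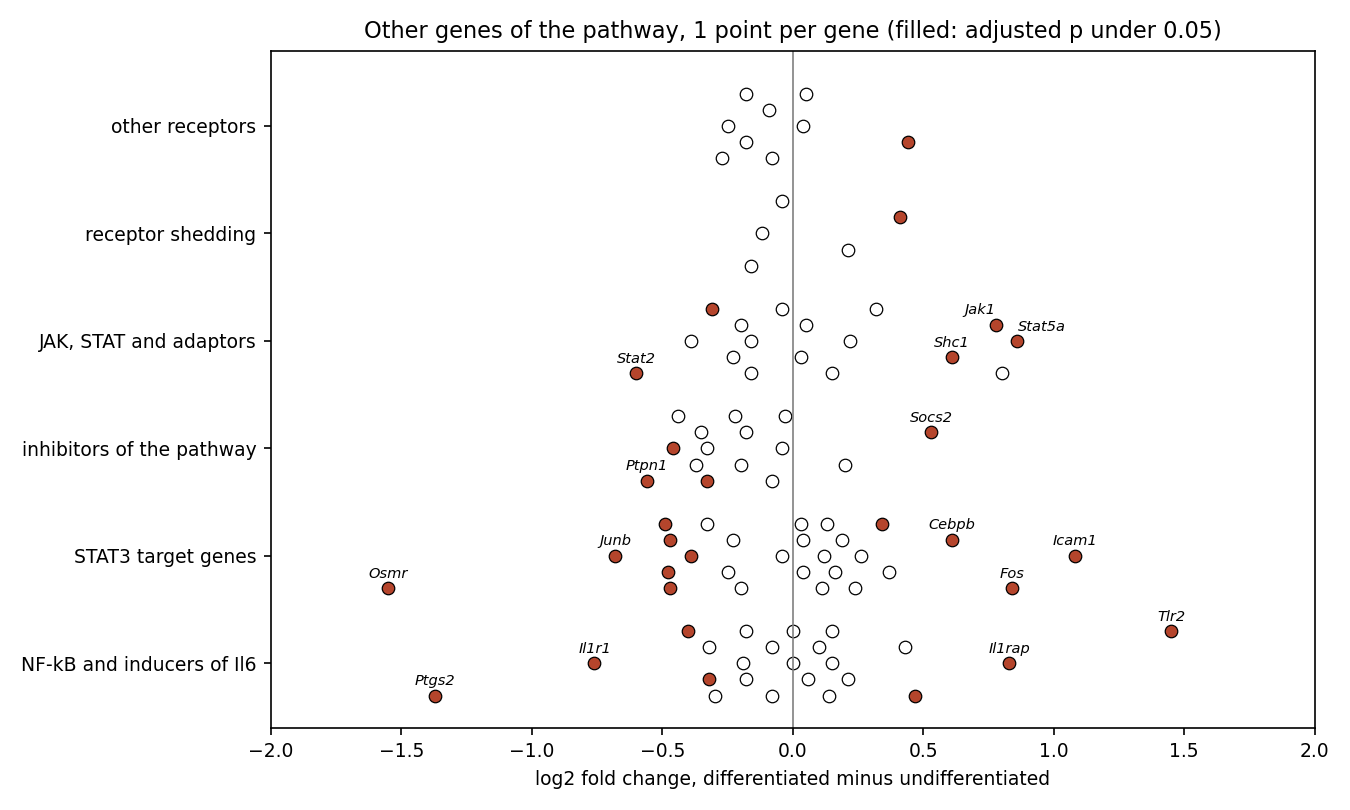
Log2 fold change, differentiated minus undifferentiated (horizontal axis), of each gene in 6 pathway lists, 1 point per gene; filled points passed an adjusted p of 0.05, and those of them at or beyond 0.5 in either direction are named. Points lie on both sides of 0 in each list, with Osmr and Ptgs2 farthest to the left and Tlr2 and Icam1 farthest to the right.

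With a list of further ligands, 7 lists were read, and over them 13 of 103 genes other than the 10 were called higher and 16 lower, against 7.97% and 9.04% of all entries. Of these 29 calls, 13 held whichever array was left out, 7 of them higher and 6 lower. The calls numbered 15 without differentiated replicate 1, 13 without differentiated replicate 2 and 17 without undifferentiated replicate 1. The plot of every alternative shows that the falls of Osmr and Socs3 did not depend on a single array in this way.

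**Figure D4:**
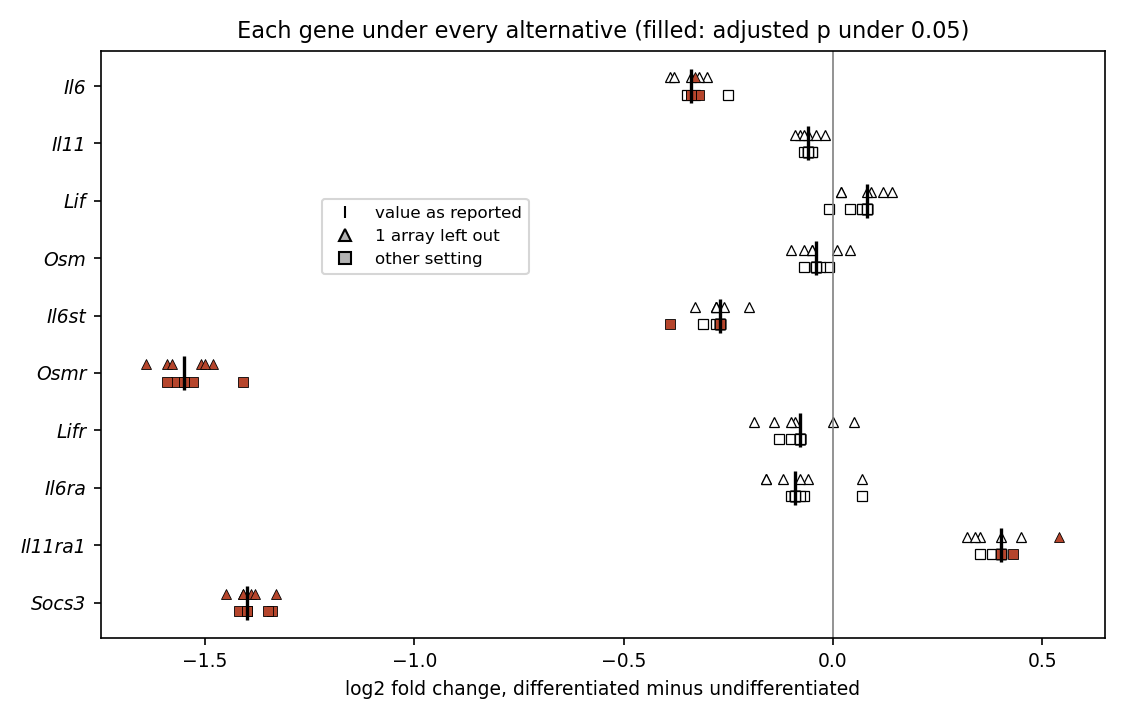
Log2 fold change, differentiated minus undifferentiated (horizontal axis), of the 10 genes as reported (black bar), with each array left out (triangles) and under the other settings (squares); filled symbols passed an adjusted p of 0.05. Osmr (-1.64 to -1.41) and Socs3 (-1.45 to -1.33) passed throughout, whereas Il6, Il6st and Il11ra1 passed in some settings only.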

How the data were processed

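The deposited values are the authors' intensities on a linear scale, 1 per probe set and array, made with RMA per the submitters' processing notes; per the labels the arrays were single-colour (Cy3) NimbleGen arrays. The RMA version, the array's genome build and whether the arrays were processed together are not given in the sources used here. Median intensity as deposited was 806 to 845 units per array, and the random-sequence control (6131 probes) was not exceeded by 5.75% to 6.77% of probe sets. The number of arrays limits the precision. On the log2 scale sorted arrays differed by a median of up to 0.135 at matched ranks, above the limit of 0.02 set for this, so all 6 were quantile normalised together. Of 42586 probe sets, 17849 were named by RefSeq accession and 130 by symbol or synonym in the GRCm38.p6 gene table, and the one with the highest mean stood for a gene. The comparison used lmFit and eBayes of limma 3.58.1 under R 4.3.3, two-sided and without covariates, and was tested on simulated data. The series table holds the same values with differentiated arrays 1 and 2 exchanged, so these replicate numbers follow the array files. The 10 genes and all lists were chosen with earlier results of these data known. Named were the 10 genes, up to 4 called genes of each list with the largest change (or the 1 with the largest if none was called), and the 5 genes nearest to Osmr. A few more called genes, partners and markers, and the 6 pairs of genes, were added after their values were seen. The 17 alternatives were other scaling (deposited, median centred, an offset of 50, the series table), a filter at the 25th percentile, other probe set rules, eBayes settings, array weights, replicate blocks and leaving out each array. The result for 1 gene is not reported here.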

Additional observations from a re-analysis of the deposited data

How the results depend on the processing

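Osmr and Socs3 kept their direction and their call in all 17 alternatives. Some of these could not have moved them. Each of the 10 genes had 1 probe set, so the other probe set rules left their log2 fold changes as they were. The series table only exchanged arrays within the differentiated group. The count of the 10 genes called was 3, and it was 5 with array weights, as it was (5) under the trend and robust options of eBayes. Il6st and Il11ra1 were the genes added. The array weights rested mostly on differentiated replicate 2, with a weight of 11.069 against 0.24 to 1.423 for the other arrays. Leaving out 1 array gave 2 to 3. The count over all entries was 7135, 15846 with array weights and 3141 to 9391 with 1 array left out (4261 without differentiated replicate 1 and 3141 without differentiated replicate 2). Of the other pathway genes 29 were called, 52 with array weights and 13 to 34 with 1 array left out. Signs turned only for genes that were not called: Lif (-0.01) and Il6ra (0.07) with array weights, Osm without differentiated replicate 2 (0.01) or undifferentiated replicate 3 (0.04), and Lifr (0.05) and Il6ra (0.07) without undifferentiated replicate 3. With 1 array left out these genes ranged over -0.10 to 0.04 (Osm), -0.19 to 0.05 (Lifr) and -0.16 to 0.07 (Il6ra). Il6 and Il11 fell under the 25th percentile filter and have no value there. The cause of these shifts was not tested. No scaling moved the median of all entries by more than 0.02. Deviations of same-numbered arrays correlated at 0.334, -0.145 and 0.459 by the numbers of the array files and at -0.01, 0.428 and 0.459 by those of the series table. Which numbering is right is not known, and by neither did all 3 pairs pass 0.1, so the numbers were not taken as pairs. The replicate block gave 4 of the 10 genes called (Il11ra1 added, adjusted p = 0.0403), 34 pathway genes and 8984 entries. A block with the numbers of the series table, chosen after seeing the data, gave 4, 37 and 10493.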

Other observations

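Genes of NF-kB signalling and of the stimuli that induce Il6 in osteoblasts went both ways, 3 called higher and 4 lower of 23. Over all entries these shares were 7.97% and 9.04%. The median log2 fold change of the list was 0.00. Tlr2, a receptor for bacterial lipoproteins, read 12.23, 12.06 and 12.09 on differentiated arrays 1, 2 and 3, against 10.52, 10.84 and 10.68 on undifferentiated arrays 1, 2 and 3, a rise of 1.45 ± 0.11 SE on the log2 scale (limma adjusted p = 7.77e-05). The interleukin-1 receptor chains moved apart: the accessory chain Il1rap rose by 0.83 ± 0.13 SE, while the binding chain Il1r1 had a log2 fold change of -0.76 ± 0.10 SE (limma adjusted p = 0.00376 and 0.00127). Ptgs2, the inducible cyclooxygenase, read 7.08, 7.02 and 7.25 on differentiated arrays 1, 2 and 3, close to the control probes, against 8.45, 7.89 and 9.12 on undifferentiated arrays 1, 2 and 3. Its groups did not overlap (limma adjusted p = 0.00872), but the undifferentiated arrays spread widely (SD of 0.62), so the size of its fall is imprecise. The NF-kB subunit gene Rela had a log2 fold change of 0.00 and the cytokine gene Tnf one of 0.15, and neither passed.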
